A study of Mus musculus with 3 samples.

Results

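Lymphatic endothelial cells made up 145 of the 26158 aortic cells analyzed, and 145 of the 413 cells that met the criteria for endothelium. Each member was chosen by its measured values alone. A cell entered with 600 to 5000 detected genes, at most 10% mitochondrial UMIs (unique molecular identifiers, the counted transcript molecules), a sum of Pecam1 and Cdh5 of at least 4 UMIs per 10000, no Ptprc UMI, a sum of 6 smooth muscle genes (Acta2, Myh11, Tagln, Cnn1, Myl9 and Tpm2) under 100 and Dcn under 30 per 10000. It was called lymphatic where the sum of Mmrn1, Flt4, Prox1 and Reln exceeded both the sum of Vwf, Heg1, Bmp4 and Edn1 (luminal) and the sum of Gpihbp1, Rgcc, Cd36 and C1qtnf9 (capillary). The levels of these genes, and the contrast between lymphatic and other endothelial cells as a whole, therefore describe the selection and were not tested.

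The cells came from ascending aortas of male mice on the C57BL/6J background at postnatal day 45, profiled by droplet-based single-cell RNA sequencing of transcript 3′ ends. Wild-type mice (WT, 3 pooled animals), mice homozygous for the hypomorphic fibrillin-1 allele mgR (Fbn1 mgR/mgR, a model of Marfan syndrome; 3 pooled animals) and Fbn1 mgR/mgR mice given losartan, a blocker of the angiotensin II type 1 receptor, at 0.6 g/L in drinking water from postnatal day 16 (mgR-LOS, 4 pooled animals) gave 1 library each. The labels do not say whether the mgR animals drank vehicle. Because each condition was a single pooled library with no replicate, differences between conditions carry no test, and every interval below is a 95% exact interval for counting error only.

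Lymphatic endothelial cells line the vessels that drain interstitial fluid and leukocytes from the outer vessel wall. Their identity is maintained by the homeobox factor Prox1, they respond to VEGF-C through the receptor VEGFR-3 (Flt4), and initial (capillary) lymphatics carry the hyaluronan receptor Lyve1 and secrete the chemokine Ccl21, a ligand of Ccr7 on dendritic cells and T cells. Collecting lymphatics hold valves and carry less Lyve1 and Ccl21.

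The WT library held 26 lymphatic cells with 199600 UMIs in all, the mgR library 75 cells with 663796 and the mgR-LOS library 44 cells with 348101. Median depth per lymphatic cell was 6752, 8035 and 6461.5 UMIs. The deposited matrices held 7858, 10657 and 14663 barcodes, of which 5361, 8076 and 12721 passed the limits on genes and mitochondrial UMIs. Between 22 and 46 barcode sequences were shared by each pair of libraries, and none of them was a lymphatic cell in both.

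The targeted gene, Fbn1 (fibrillin-1, the backbone of microfibrils), was read first as a check on the labels. Lymphatic cells held 36 Fbn1 UMIs in WT, 47 in mgR and 17 in mgR-LOS, which are 180 (126 to 250), 70.8 (52.0 to 94.2) and 48.8 (28.4 to 78.2) CPM (UMIs of the gene per 1000000 summed UMIs of all lymphatic cells). The mgR level was 0.393 times the WT level (0.249 to 0.624). All cells together gave 361, 150 and 117 CPM, so both mgR libraries lay below WT, as labelled. With every cell thinned to 1000 UMIs, an Fbn1 UMI was found in 7.69%, 1.33% and 4.55% of lymphatic cells (57.7%, 40% and 29.5% before thinning) against 20.5%, 8.35% and 6.49% of smooth muscle-rich barcodes, and a free transcript is not told apart from expression at this level.

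Lymphatic cells were 0.485% (0.317 to 0.710%) of all WT cells, 0.929% (0.731 to 1.16%) of mgR cells and 0.346% (0.251 to 0.464%) of mgR-LOS cells. The mgR interval lay above the other intervals, and those of WT and mgR-LOS overlapped, but the separation of mgR from WT was lost under other mitochondrial limits, as given below. Endothelial cells as a whole were in the same order, at 1.70%, 2.41% and 0.998% of all cells. Within the endothelium the lymphatic share was 28.6% (19.6 to 39.0%) in WT, 38.5% (31.6 to 45.7%) in mgR and 34.6% (26.4 to 43.6%) in mgR-LOS. These intervals overlapped. With at most 5% mitochondrial UMIs the shares of endothelium were 30.4%, 39.4% and 43.2%, highest in mgR-LOS. The median mitochondrial share of lymphatic cells was 4.23%, 3.62% and 3.62%, and its part in the difference was not tested. Under a mitochondrial limit of 5% the shares of all cells were 0.85% (0.496 to 1.36%), 1.17% (0.893 to 1.495%) and 0.509% (0.361 to 0.699%), and under one of 20% they were 0.481% (0.317 to 0.699%), 0.873% (0.689 to 1.09%) and 0.350% (0.257 to 0.465%). The intervals of WT and mgR overlapped under both.

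**Figure D1:**
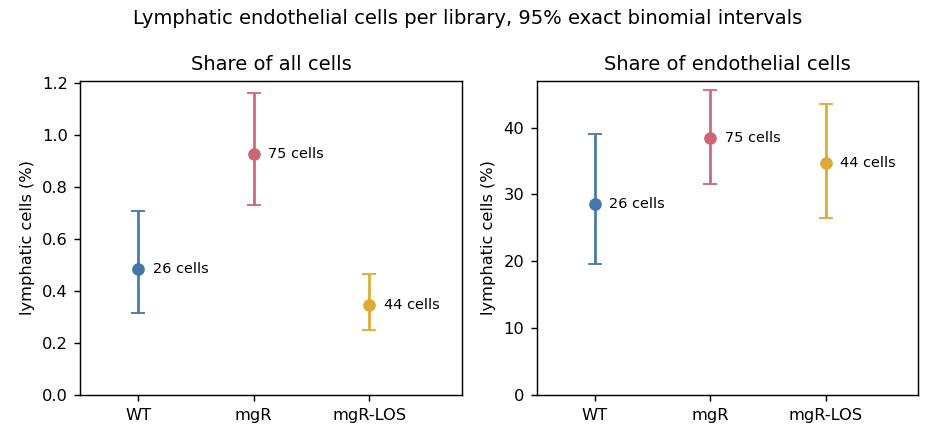
Lymphatic endothelial cells as a percentage of all cells (left) and of endothelial cells (right) in each library; points are shares, bars 95% exact binomial intervals, and labels give the number of lymphatic cells. The mgR share of all cells (0.929%) stands above the others, whereas the shares of endothelium overlap.

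The median lymphatic sum was 18.5 UMIs per 10000 in WT, 50.5 in mgR and 27.4 in mgR-LOS members. The members closest to the limit exceeded the larger of the other sums by 1.63, 1.58 and 1.37 per 10000 in the 3 libraries, and the nearest endothelial cells outside it had margins of -0.565, 0 (a tie) and -1.95. Members had at least 4.05, 4.17 and 4.42 UMIs per 10000 of Pecam1 and Cdh5, and the highest cells just below that limit had 3.78, 3.92 and 3.57. In all, 1 WT cell and 2 mgR cells rested on a single UMI of the 4 lymphatic genes. No lymphatic cell was called a doublet in any library, nor was any luminal or capillary-type cell. The rule had already left out cells past its limits on Ptprc, smooth muscle genes and Dcn. The lack of calls therefore does not show that every member was a single cell.

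Genes that the rule had not used, given here as a description of the same contrast, went with the label. Lyve1 was at 1794, 2091 and 1399 CPM in WT, mgR and mgR-LOS, against 19.5, 4.42 and 7.55 in the remaining endothelial cells. Ccl21a, the lymphatic CCR7 ligand, stood at 5261, 8896 and 7328 CPM, against 1.95, 2.21 and 0 in the other endothelial cells. Pdpn (podoplanin, a membrane glycoprotein that marks lymphatic against blood endothelium) was at 235, 265 and 152 CPM, with no UMI in the other endothelial cells of either mgR library. In WT a Pdpn UMI was found in 26.9% of thinned lymphatic cells and in 0% of thinned luminal and capillary-type cells (65.4%, 4.55% and 0% before thinning). Lyve1 and Ccl21a were thus high in the selected cells of every library and far lower in the rest, as was Pdpn in both mgR libraries.

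Markers of other cell types were low. The rule itself capped the smooth muscle sum and Dcn and admitted no Ptprc UMI, so low values of these describe the selection. The smooth muscle list (6 of 6 genes detected) summed to 992, 1086 and 1023 CPM in lymphatic cells against 39680, 25380 and 33746 in all cells, with Acta2 the most abundant. Fibroblast markers (6 of 6) summed to 366, 273 and 330 CPM, led by Dcn in WT and by Col3a1 in both mgR libraries. Macrophage markers (5 of 6) summed to 20.04, 39.2 and 60.3 CPM, T cell (0 of 3) and mesothelial markers (0 of 3) had no UMI, and B cell, neutrophil, red cell, Schwann and megakaryocyte markers each stayed under 30 CPM. Acta2 was at 406, 469 and 448 CPM in lymphatic cells and at 16383, 10238 and 13510 CPM in all cells. After thinning each cell to 1000 UMIs, Acta2 had a UMI in 42.3%, 36.0% and 31.8% of lymphatic cells (100%, 97.3% and 100% before thinning) and in 31.8%, 46.5% and 51.6% of luminal cells.

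Outside these cells the share of barcodes with a UMI differed by gene. After thinning, Mmrn1 (multimerin-1, a secreted glycoprotein that the rule used) had a UMI in 61.5% (40.6 to 79.8%) of WT, 85.3% (75.3 to 92.4%) of mgR and 72.7% (57.2 to 85.04%) of mgR-LOS lymphatic cells, and in 0%, 0.675% and 0.0388% of smooth muscle-rich barcodes. Before thinning these shares were 80.8%, 93.3% and 90.9% in lymphatic cells, whose median depths are given above, and 0.0999%, 1.93% and 0.259% in smooth muscle-rich barcodes, which had medians of 14236, 14854 and 8500 UMIs. Of genes the rule had not used, Lyve1 had a UMI in 0.133%, 0.644% and 0.350% of smooth muscle-rich barcodes after thinning, Maf in 1.93%, 4.45% and 4.63% and Fgl2 in 44.6%, 28.1% and 30.8%. Thinned luminal cells had Fgl2 in 9.09%, 5.81% and 12.9%, and its share in smooth muscle-rich barcodes is not read as background.

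**Figure D2:**
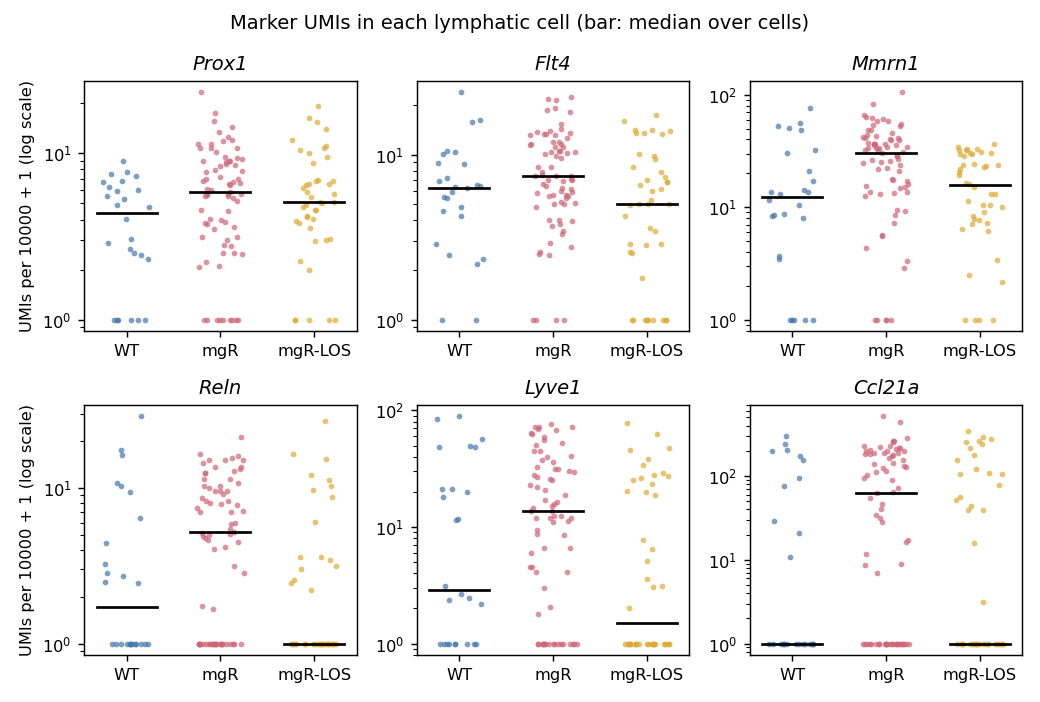
UMIs per 10000 (plus 1, log scale) of 6 lymphatic markers in each lymphatic cell of the 3 libraries, with the median over cells as a bar; points at the bottom are cells with no UMI. Prox1, Flt4 and Mmrn1 had a UMI in at least 76.9% of the cells of each library, whereas Reln, Lyve1 and Ccl21a were at 0 in many cells of every library.

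Against the other endothelial cells of the same library, 65 of 785 genes with at least 200 CPM in either population of every library were at least 2-fold higher in lymphatic cells in all 3 libraries (8.28%), and 60 were at least 2-fold lower (7.64%). The other endothelial cells include 5, 3 and 1 cells of WT, mgR and mgR-LOS with tied sums, and without them, an alternative chosen after the values were seen, 65 genes were higher and 62 lower. This contrast is the one the cells were chosen on, so these counts describe the population and support nothing further. The genes with the highest smallest ratio were Ccl21a, Mmrn1, Lyve1, Maf, Reln, Dtx1, Thy1, Sema3d, Lcn2, Ptn, Flt4, Fgl2, Igfbp5, Prss23, Prox1, Clca3a1, Lbp, Pard6g, Nr2f2 and Abi3bp.

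Several of these carry known roles in lymphatic endothelium. Maf, a basic leucine zipper transcription factor, was at 521, 829 and 836 CPM in lymphatic cells and at 7.82, 0 and 3.77 in other endothelial cells. Nr2f2 (COUP-TFII, a nuclear receptor that works with Prox1) was at 471, 568 and 503 CPM against 13.7, 63.0 and 37.7, and its lowest ratio was 9.01, in mgR. Reln (reelin, a secreted glycoprotein) was at 416, 556 and 325 CPM, against 0, 1.11 and 0 in the other cells. Of the list of 12 lymphatic transcription factors, 5 were abundant enough to compare and 2, Prox1 (used by the rule) and Nr2f2, were 2-fold higher in every library (8.28% over all genes compared), while Klf2, a factor induced by shear stress, was at 1804, 1704 and 1362 CPM in lymphatic and at 1786, 1416 and 1480 CPM in other endothelial cells. The median ratio over that list was 1.25, beside 1.02 over all genes compared.

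Of 18 listed lymphatic surface and matrix markers, 14 were abundant enough to compare and 11 were higher in every library (8.28% over all genes compared), with a median ratio of 22.5. Mmrn1 and Reln, which the rule used, were among the 11. The 11 also included Igfbp5 (a binding protein of insulin-like growth factors) at 6844, 5701 and 6863 CPM against 385, 147 and 489 (47.7 in WT without the 5 cells with tied sums, which held 174 of 197 UMIs), Fgl2 (a fibrinogen-like secreted protein) at 1743, 3042 and 1896 CPM against 66.4, 59.7 and 130, and the acute-phase protein genes Lcn2, Lbp and Cp. Lbp (lipopolysaccharide-binding protein) stood at 466, 1139 and 870 CPM against 44.9, 60.8 and 9.44. Fgl2 was not particular to these cells in the aorta, since it had a UMI in 44.6%, 28.1% and 30.8% of thinned smooth muscle-rich barcodes.

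The receptors of the VEGF family differed among themselves. Flt4 was at 591, 750 and 583 CPM in lymphatic cells and 31.3, 21.01 and 35.9 in the rest, Kdr (VEGFR-2) at 446, 595 and 460 against 148, 188 and 194, and Nrp2, the neuropilin that binds VEGF-C, at 381, 563 and 506 against 68.4, 112 and 84.9. Flt1 (VEGFR-1) showed the opposite order, at 140, 63.3 and 86.2 CPM against 545, 395 and 621, as did Nrp1, with 1, 2 and 0 UMIs in lymphatic cells. The ligand genes were scarcely seen: Vegfc had 3, 3 and 8 UMIs and Vegfd 0, 1 and 4 in all lymphatic cells. Ramp2 and Calcrl, which form the adrenomedullin receptor, were less than 2-fold apart from other endothelial cells in each library, with Ramp2 at 1172, 981 and 1023 CPM against 1233, 791 and 1029.

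Genes of blood endothelium were low. Of 27 listed, 13 were abundant enough to compare and 9 were lower in lymphatic cells in every library (7.64% over all genes compared), with a median ratio of 0.195. The rule used 4 of those 9, Vwf, Heg1, Bmp4 and Edn1. Cytl1, a small secreted protein of luminal aortic cells, had 1, 2 and 3 UMIs in lymphatic cells against 3267, 2378 and 2144 CPM in the rest. Jam2, a junctional adhesion molecule, had no UMI in any lymphatic cell (a limit of 15.0, 4.52 and 8.62 CPM, 3 UMIs of each library's lymphatic total) against 250, 221 and 274 CPM in other endothelial cells. Of 16 junction genes 7 were compared, and 3 of them, Pecam1 (used by the rule), Esam and Jam2, were lower and none higher, against 7.64% lower over all genes compared. Cldn5 (claudin-5, a tight junction protein) was at 1568, 2010 and 1864 CPM against 995, 642 and 808.

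**Figure D3:**
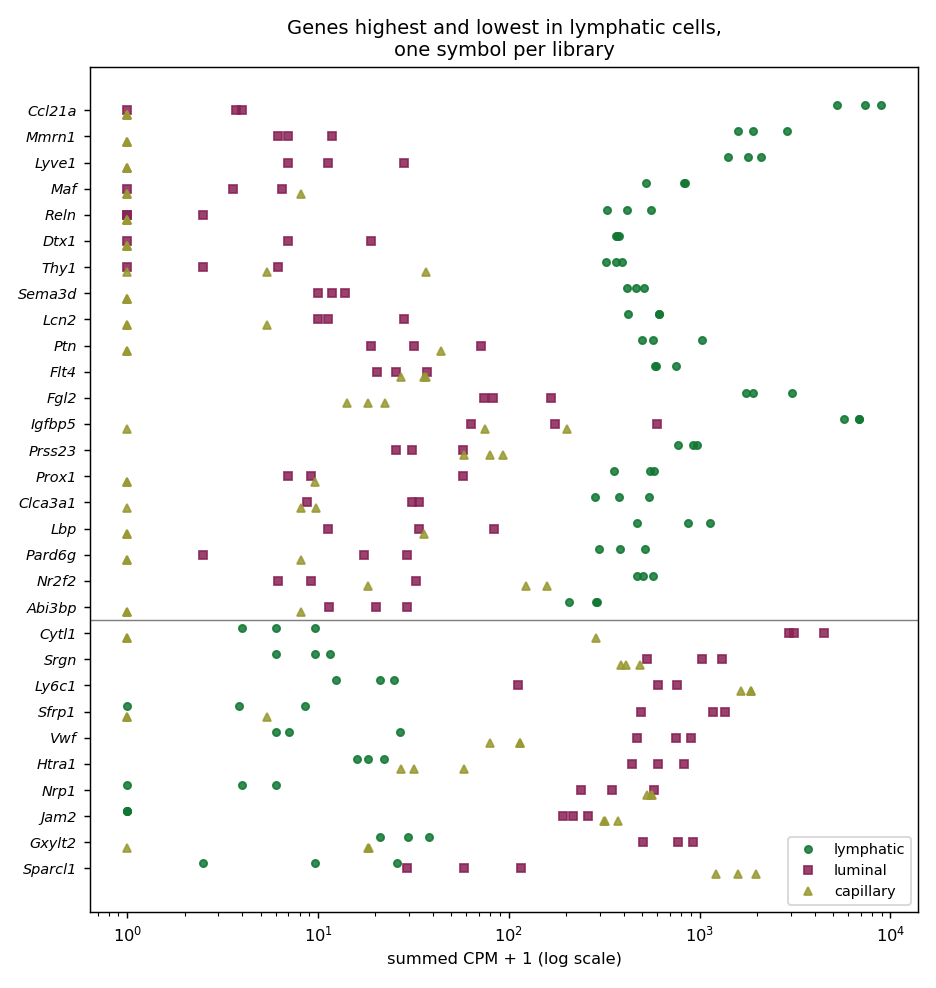
Summed CPM (plus 1, log scale) in lymphatic, luminal and capillary-type endothelial cells for the 20 highest and 10 lowest ranked genes by ratio of lymphatic over other endothelial cells, with 1 symbol per library. The lymphatic symbols of the upper genes lie above 200 CPM and to the right of all others; those of the lower genes lie under 40 CPM (Gxylt2 in mgR-LOS, 37.3, is the highest), and Sparcl1 is carried mainly by capillary-type cells.

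Leukocyte trafficking genes differed among themselves. Ackr2, a decoy receptor that clears inflammatory CC chemokines, had 35, 148 and 33 UMIs in lymphatic cells (175, 223 and 94.8 CPM) and was at 0, 1.11 and 0 CPM in the other endothelial cells. Ackr4, a scavenger of Ccl21, had only 9 UMIs in each library. Cxcl12 and the adhesion receptor Vcam1 were lower in lymphatic cells, with Vcam1 at 35.1, 15.1 and 66.1 CPM against 690, 1309 and 562. MHC class II genes summed to 80.2, 67.8 and 51.7 CPM in lymphatic cells, to 148, 70.1 and 93.0 CPM in capillary-type cells and to 1202, 720 and 180 CPM in luminal cells.

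Valve genes were present at low levels. Of 22 listed, 3 were abundant enough for the comparison and Gja1 (a connexin of gap junctions) was higher (8.28% over all genes compared), at 256, 343 and 270 CPM against 102, 123 and 98.1. Itga9 (integrin alpha-9, needed for valve leaflets) was at 266, 247 and 230 CPM, and Foxc2, a transcription factor of lymphatic valves, had a UMI in 6 of 26, 30 of 75 and 20 of 44 cells. Madcam1 was seen as 1 UMI in 1 mgR cell. Of 12 renin-angiotensin genes 7 had UMIs in lymphatic cells, and the list summed to 431, 294 and 330 CPM against 479, 689 and 598 in other endothelial cells. Lnpep, an aminopeptidase, was its most abundant gene, at 175, 119 and 112 CPM. The receptor genes Agtr1a (which encodes a target of losartan), Agtr1b, Agtr2 and Mas1 had no UMI in any lymphatic cell, and Ace was at 60.1, 18.1 and 34.5 CPM against 238, 397 and 311 in other endothelial cells. No UMI of Agtr1a in 663796 allows up to 4.52 CPM in the mgR cells.

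The Ccl21a and Pdpn promoters are shown because these genes mark the cells without having been used to choose them. Promoter windows for 9 of 11 genes of interest were listed in the RefSeq table (build GRCm38.p6), Lyve1 and Maf being the others. The lines give the 250 bases upstream of the RefSeq start, 5′ to 3′ on the strand of the gene, chr4:42773992-42774241 (minus strand) for Ccl21a and chr4:143299565-143299814 (minus strand) for Pdpn. The first window reaches 2 bases into the GENCODE gene and the second none. Capitals mark the letters of 7 motifs searched on both strands, namely the ETS letters AGGAAG, the forkhead letters TAAACA, the GATA-factor letters AGATAA, the NFAT letters GGAAAA, the SOX letters ACAAAG, the nuclear receptor letters AGGTCA and the STAT letters TTCNNNGAA.
Ccl21a: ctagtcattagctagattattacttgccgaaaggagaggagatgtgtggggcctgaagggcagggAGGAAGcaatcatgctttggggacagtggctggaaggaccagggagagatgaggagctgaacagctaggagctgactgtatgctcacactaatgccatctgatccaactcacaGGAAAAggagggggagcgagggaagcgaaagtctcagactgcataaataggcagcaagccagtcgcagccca
Pdpn: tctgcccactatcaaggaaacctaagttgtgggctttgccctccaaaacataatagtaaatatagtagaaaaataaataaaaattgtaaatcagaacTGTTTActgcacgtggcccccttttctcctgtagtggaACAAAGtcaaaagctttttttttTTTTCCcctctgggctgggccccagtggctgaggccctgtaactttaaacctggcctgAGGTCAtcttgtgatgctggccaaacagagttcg

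Ccl21a held an ETS and an NFAT string and Pdpn a forkhead, a SOX, an NFAT and a nuclear receptor string, with no overlap between matches. These letters are common: of 32851 upstream windows of the same length, 29.5% hold the ETS, 12.0% the forkhead, 9.99% the GATA-factor, 20.4% the NFAT, 16.5% the SOX, 14.0% the nuclear receptor and 7.02% the STAT letters. A match describes the sequence only.

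Lymphatic cells differed among themselves in Ccl21a, which the rule had not used. It had a UMI in 11 of 26 WT cells (42.3%, 23.4 to 63.1%), 50 of 75 mgR cells (66.7%, 54.8 to 77.1%) and 21 of 44 mgR-LOS cells (47.7%, 32.5 to 63.3%). The 3 intervals overlapped. Among smooth muscle-rich barcodes 0.533%, 2.97% and 0.530% had one. Thinning to 1000 UMIs left 42.3%, 62.7% and 45.5%, against 0.0334%, 0.767% and 0.0647% of smooth muscle-rich barcodes. Cells that carried it carried much of it, with medians of 152, 150 and 109 UMIs per 10000 and highest values of 301, 517 and 341. Median depth was 5477, 8226 and 5353 UMIs in the cells with Ccl21a and 6857, 7310 and 6936 in those without. Several near-identical copies of Ccl21a lie in the mouse genome, and reads that match more than one gene are dropped by the counting software, so its level is uncertain. The copy Gm21541 had 4, 15 and 9 UMIs and Ccl21b 0, 2 and 0.

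Cells with a Ccl21a UMI were compared with those without, a split chosen after the values were seen. Of 752 genes with at least 200 CPM in either subset of every library, 17 were at least 2-fold higher in every library, Ccl21a itself included (2.26%), and 8 were lower (1.06%). Reln was at 926, 765 and 613 CPM with Ccl21a and 43.3, 109 and 29.1 without. Lyve1 was at 3752, 2710 and 2678 CPM against 364, 770 and 87.3, and a Lyve1 UMI was found in 11 of 11, 47 of 50 and 18 of 21 cells with Ccl21a but in 6 of 15, 11 of 25 and 4 of 23 without. Genes with higher levels in the same cells included Mmrn1, Flt4, Pdpn, Maf, Fgl2, Pard6g, Pcsk6 (a proprotein convertase), Fbln5 (fibulin-5, an elastic fiber protein), Igfbp4, Abi3bp, Sema6a, Col4a1 and Gpihbp1. Gpihbp1, the capillary anchor of lipoprotein lipase and a gene the rule counted against lymphatic identity, was at 261, 341 and 267 CPM against 78.0, 51.9 and 75.7. Under the rule a cell with more Mmrn1 and Flt4 can hold more Gpihbp1 and still enter. The part of the selection in this difference was not tested.

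Cells without Ccl21a were higher in Apoe, Phlda3, Cd93, Fxyd5, Fabp4, Rbp7, Ppp1r14b and Id1. For Rbp7 the WT value rests on 1 cell without Ccl21a, which held 68 of the 107 UMIs of all WT lymphatic cells. That cell had Mmrn1 UMIs, so it stays in the restriction to Mmrn1 given below. Fabp4, a fatty acid binding protein of capillary and other microvascular endothelium, was at 1985, 996 and 1414 CPM in these cells against 119, 442 and 170 in cells with Ccl21a. Cd93, a C-type lectin-like receptor of endothelium, was at 381, 217 and 204 CPM against 107, 95.1 and 62.4. Prox1, which the rule used, did not pass 2-fold in any library, at 392, 670 and 630 CPM with Ccl21a and 329, 364 and 466 without. Among lymphatic cells with an Mmrn1 UMI alone, a restriction chosen after the values were seen, 9 of the 16 other higher genes and 6 of the 8 lower genes were still 2-fold apart in every library. Apoe in the WT cells without Ccl21a was then at 226 CPM, and its ratio in WT was 0.157. Fabp4 was then at 2730, 1138 and 1654 CPM without Ccl21a, while Ppp1r14b and Id1 no longer passed.

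**Figure D4:**
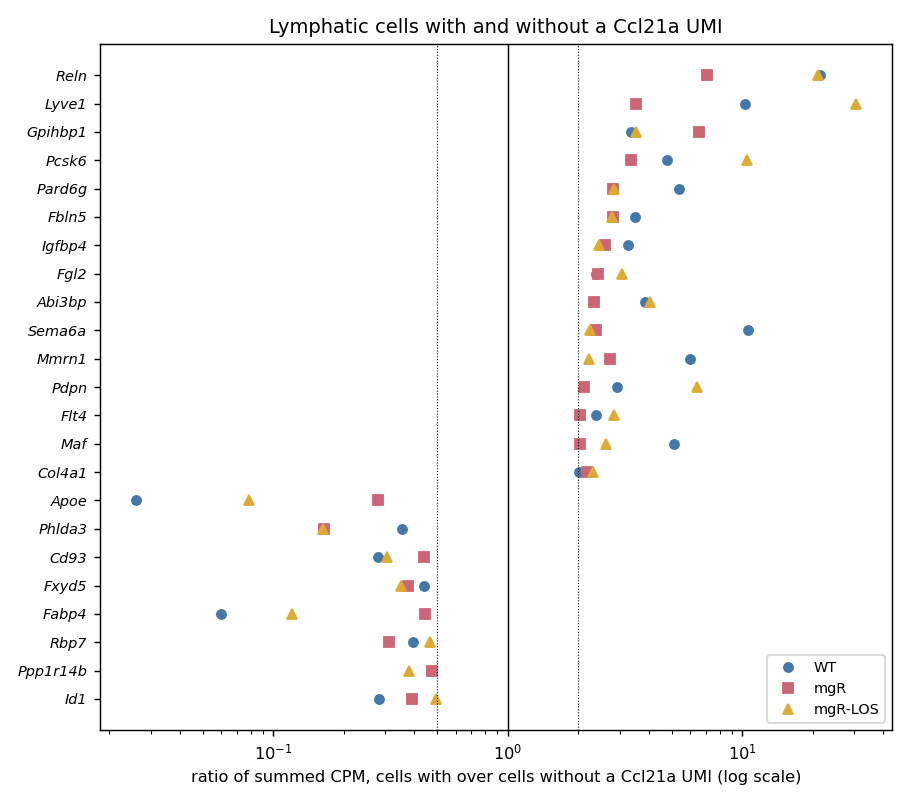
Ratio of summed CPM (log scale) between lymphatic cells with and without a Ccl21a UMI in each library, for 15 of the 16 other genes at least 2-fold higher and the 8 at least 2-fold lower in all 3 libraries; dotted lines mark 2-fold. Reln stands at 21.4, 7.05 and 21.1 in WT, mgR and mgR-LOS, and Apoe at 0.026, 0.279 and 0.079; in WT the Apoe ratio is 0.157 among cells with an Mmrn1 UMI.

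A smaller set stood apart from the label. In 5 of 26 WT, 5 of 75 mgR and 4 of 44 mgR-LOS cells no Mmrn1 UMI was found, and none of these 14 cells had a Lyve1 or Pdpn UMI. They entered the selection mainly through Prox1, seen in 4, 3 and 4 of them, and Flt4, seen in 4, 3 and 2. Compared with the cells that had Mmrn1, 6 of 762 genes were at least 2-fold higher in every library (0.787%) and 34 lower, among them Mmrn1 by construction (4.46%). The 6 were Igf2, Hand2 (a basic helix-loop-helix factor of heart and neural crest), H19, Clu, Id3 and Foxc2. Igf2, an insulin-like growth factor, was at 667, 201 and 242 CPM in these cells and at 11.9, 1.58 and 3.13 in the others, and Id3, a target of BMP signaling, at 2477, 2180 and 1451 CPM against 274, 467 and 645.

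All 97 Ahsg UMIs (fetuin-A), 139 of 160 Apoe UMIs and 111 of 123 Postn UMIs (periostin, a matricellular protein) of WT lymphatic cells were in these 5 cells. The mgR set held 9 of 11, 13 of 75 and 84 of 208, and the mgR-LOS set 0 of 7, 4 of 147 and 1 of 43. Prox1, which the rule used, was at 476, 335 and 726 CPM in the cells without Mmrn1 and at 333, 584 and 533 in the others, and 1 of the mgR-LOS cells had 6 Ccl21a UMIs. The cells without Mmrn1, Lyve1 and Pdpn UMIs thus lacked several lymphatic markers while most had Prox1, and they are given no other name here. The results that follow are stated with and without these cells where it matters. Some cells with few Mmrn1 UMIs also had no Lyve1, Pdpn or Ccl21a UMI and are not left out with them. Examples are an mgR cell with 3 Mmrn1 and 7 Prox1 UMIs and an mgR-LOS cell with 1 and 10.

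The mgR and WT libraries were compared by the ratio of summed CPM, mgR over WT, over 897 genes with at least 200 CPM in lymphatic cells of either library. The median ratio was 1.03. In mgR 33 genes were at least 2-fold higher (3.68%) and 20 at least 2-fold lower (2.23%). These figures describe 1 library against another. No gene of the lymphatic transcription factor list (5 compared) or of the VEGF list (8 compared) was 2-fold apart, and of 15 lymphatic surface and matrix markers only Nts (neurotensin) and Lbp were, both higher.

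Of the genes that chose the cells, Prox1 was at 356 (278 to 449) CPM in WT and 572 (516 to 633) in mgR, and the mgR over WT ratios were 1.61 for Prox1, 1.51 for Mmrn1 and 1.27 for Flt4. These describe the selected cells and support nothing beyond them. Ccl21a, which the rule had not used, had a ratio of 1.69 (1.58 to 1.81), and the share of cells that carried it was 66.7% in mgR and 42.3% in WT, with overlapping intervals. Among cells with a Ccl21a UMI alone the ratios were 1.05 for Ccl21a, 0.982 for Mmrn1, 1.01 for Flt4 and 1.71 for Prox1. Igfbp5 was lower in mgR, with a ratio of 0.833 (0.783 to 0.887), which was 0.511 among cells with Ccl21a and 1.52 among cells without it.

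Of the 22 immediate early and stress genes 17 were abundant enough to compare, and 6 were at least 2-fold higher in mgR, namely Fos, Fosb, Junb, Egr1, Zfp36 and Socs3, and 1, Hspb1, was lower, beside 3.68% higher and 2.23% lower over all genes compared. The median ratio was 1.65 beside 1.03 over all genes. Fos was at 506, 2007 and 1534 CPM in WT, mgR and mgR-LOS, a mgR over WT ratio of 3.97 (3.24 to 4.90), and its median over cells was 1.46, 6.30 and 4.11 UMIs per 10000. Egr1, a zinc finger factor induced within minutes of stimulation, had a ratio of 5.20 (3.50 to 8.05). In the other endothelial cells Fos had a ratio of 1.33 (1.19 to 1.49) and Egr1 one of 0.80 (0.689 to 0.929). Over all cells Fos did not follow this order, at 4081, 3267 and 4048 CPM. A mean of per-cell CPM in place of summed UMIs gave 2.01 for Fos and 3.77 for Egr1, and a limit of 5% mitochondrial UMIs gave 5.95 and 9.44. With cells thinned to 1000 UMIs the ratios of Fos and Fosb were 1.89 and 1.73, short of 2-fold.

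Serpina3n and Socs3 had the largest ratios. Socs3, an inhibitor of cytokine signaling through JAK and STAT, had 10, 238 and 27 UMIs in WT, mgR and mgR-LOS lymphatic cells (50.1, 359 and 77.6 CPM). Its mgR over WT ratio was 7.16 (3.82 to 15.1). A Socs3 UMI was found in 8 of 26, 34 of 75 and 18 of 44 cells, unthinned and with no background share. In other endothelial cells the Socs3 ratio was 1.00 (0.695 to 1.46). Serpina3n, a secreted inhibitor of serine proteases of the acute phase, had 4, 198 and 58 UMIs (20.04, 298 and 167 CPM), a ratio of 14.9 (5.72 to 55.2). A Serpina3n UMI was found in 2 of 26, 39 of 75 and 15 of 44 cells, also unthinned and with no background share. In mgR the top cell held 14.3% of the UMIs for Socs3 and 11.6% for Serpina3n. The mgR cells with the most Socs3 held 34, 29 and 26 of its 238 UMIs. A further 41 of the 75 mgR cells had no Socs3 UMI, so its median over cells was 0. In other endothelial cells Serpina3n was at 21.5, 25.4 and 18.9 CPM, whereas over all cells it was at 28.2, 156 and 48.5 CPM, in the same order as in the lymphatic cells, and the part of that shift was not tested. In WT 1 cell held 75% of the 4 Serpina3n UMIs, and the cells without a Ccl21a UMI held 0. Among lymphatic cells with Mmrn1 but no Ccl21a UMI the Serpina3n ratio was 2.30. There the WT count of 0 was set to 3, so this ratio does not measure a fold.

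The Serpina3n promoter is printed because this gene had the largest ratio. Its 250 bases upstream of the RefSeq start lie at chr12:104406458-104406707 (plus strand, GRCm38.p6), outside the GENCODE gene.
Serpina3n: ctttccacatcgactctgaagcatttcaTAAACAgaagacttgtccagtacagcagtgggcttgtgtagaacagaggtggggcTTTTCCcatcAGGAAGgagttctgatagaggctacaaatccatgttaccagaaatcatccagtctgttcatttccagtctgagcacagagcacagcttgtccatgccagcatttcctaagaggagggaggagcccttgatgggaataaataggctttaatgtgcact
Capitals mark a forkhead, an NFAT and an ETS string, searched as above, and the STAT letters are not in this window.

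Other genes higher in mgR lymphatic cells covered several functions. Adamts5, a protease of versican and aggrecan, was at 110, 420 and 172 CPM, a mgR over WT ratio of 3.81 (2.47 to 6.18), and over all cells it was at 88.6, 188 and 167, also higher in mgR than WT. In other endothelial cells it was at 143, 36.5 and 47.2. Of its 73 UMIs in the other endothelial cells of WT, 48 were in the 5 cells with tied sums, and without those cells the level was 51.8 CPM and the mgR over WT ratio 0.711 (0.410 to 1.25). Among lymphatic cells with a Ccl21a UMI the Adamts5 ratio was 1.87. Cebpb, a transcription factor of the acute phase, had a ratio of 3.67 (2.42 to 5.82), Serpinb6b, an intracellular serpin, 3.97 (2.39 to 7.07), and Cmah, a sialic acid hydroxylase, 3.59 (2.15 to 6.41). For Cmah 1 cell held 56.2% of the 16 WT UMIs, and the ratio was 6.29 with no upper limit on genes per cell. Iigp1, an interferon-inducible GTPase, had a ratio of 3.99 (2.17 to 8.17), but 1 cell held 61.6% of its mgR UMIs. Mgp (matrix Gla protein, an inhibitor of calcification) was at 386, 1219 and 577 CPM, a ratio of 3.16 (2.50 to 4.05). It is also abundant in all cells, at 9373, 22268 and 11018 CPM, where its levels were in the same order, and the part of free transcripts was not tested. Ednrb, the type B endothelin receptor, was at 170, 378 and 141 CPM, a ratio of 2.22 (1.55 to 3.28), and Plvap, of the diaphragms of fenestrae and caveolae, had 2.70 (1.88 to 3.99).

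Among the genes lower in mgR, several rested on few WT cells. Ahsg (mgR over WT ratio 0.0341) and Apoe (0.141) came mostly from the 5 WT cells without Mmrn1. With the cells without Mmrn1 left out, Ahsg had 0 UMIs in WT and 2 in mgR, too few for a ratio, and for Apoe and Dcn (0.328; decorin, also capped by the rule) the ratios were 0.783 and 2.25, so that the Dcn ratio changed direction. For Rbp7 (0.295) 1 cell held 63.6% of the WT UMIs, and for Igfbp6 (0.0773) 44.3%. With no upper limit on genes per cell the Igfbp6 ratio was 0.186. Rbp7 was at 0.731 with Flt4 left out of the lymphatic sum. Stmn2 (0.298, 0.226 to 0.393; a microtubule regulator), Itih5 (0.313; a hyaluronan-binding matrix protein), Fmo1 (0.323; a monooxygenase), Hmcn1 (0.351; a basement membrane protein) and Tppp3 (0.347; a tubulin polymerization protein) were between 0.263 and 0.341 without those cells. In the other endothelial cells of mgR the ratios were 0.138 (0.086 to 0.213) for Tppp3, 0.389 (0.215 to 0.691) for Itih5, 0.517 (0.398 to 0.670) for Stmn2 and 0.667 (0.476 to 0.938) for Fmo1, all lower than in WT, and 0.566 (0.211 to 1.52) for Hmcn1, whose interval held 1 (0.323, 0.0965 to 0.981, without the cells with tied sums).

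**Figure D5:**
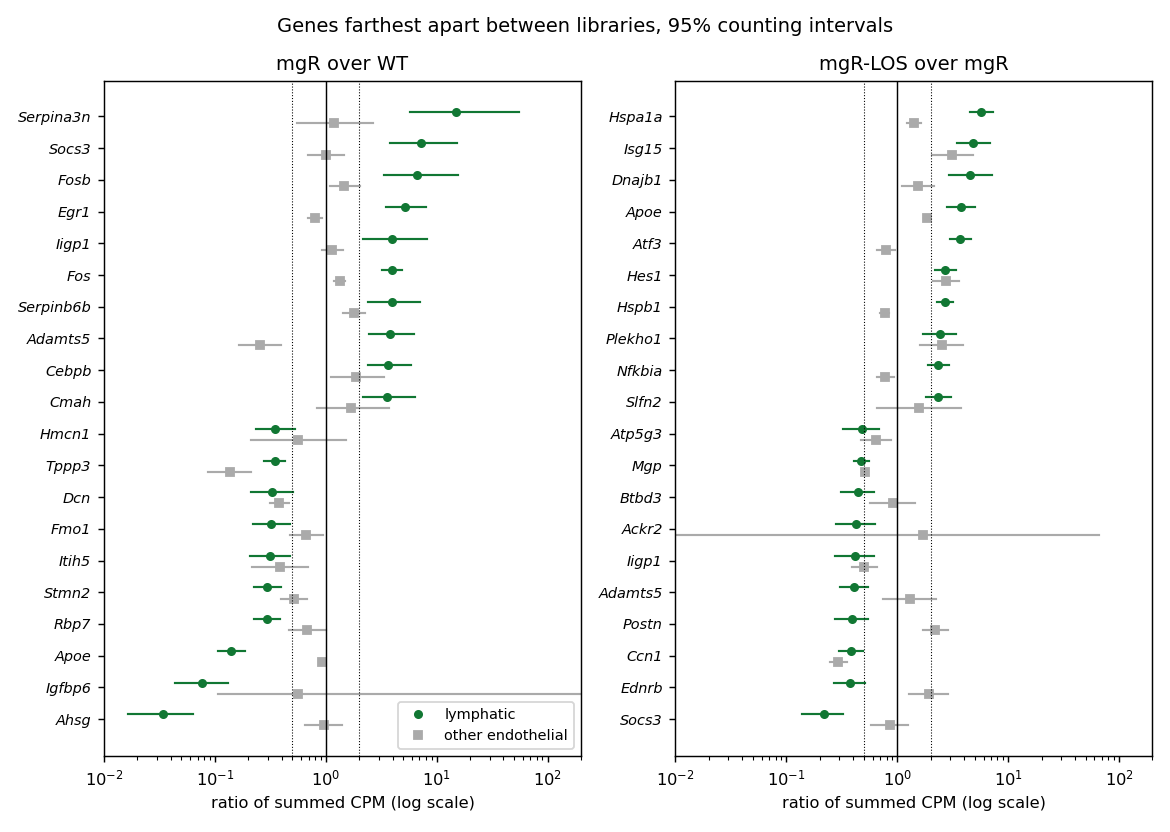
Ratios of summed CPM (log scale) with 95% counting intervals for the 10 highest and 10 lowest ranked genes in lymphatic cells, mgR over WT (left) and mgR-LOS over mgR (right), beside the ratio of the same gene in all other endothelial cells; dotted lines mark 2-fold, and intervals are drawn between 0.01 and 200. Socs3 stands near the top on the left and lowest on the right, and its ratios in other endothelial cells lie near 1.

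Losartan-treated mgR cells were compared with mgR cells in the same way, a comparison that shares the mgR library with the one above, so that the values are only given side by side. Of 900 genes 20 were at least 2-fold higher in mgR-LOS (2.22%) and 12 at least 2-fold lower (1.33%), with a median ratio of 0.942. No lymphatic surface and matrix marker (15 compared) or transcription factor (5 compared) was 2-fold apart. Of genes the rule had not used, Pdpn had a ratio of 0.574 (0.414 to 0.785) and Lyve1 of 0.669 (0.602 to 0.742). Both mix cells with and without Ccl21a, and those with it were 66.7% of mgR and 47.7% of mgR-LOS cells. Among cells with Ccl21a the ratios were 0.819 for Pdpn and 0.988 for Lyve1, and among cells without it 0.270 and 0.113, where Lyve1 was at 770 CPM in mgR and 87.3 in mgR-LOS. The ratios without Ccl21a rest on 32 mgR and 7 mgR-LOS UMIs for Pdpn and 163 and 15 for Lyve1. Of those 163 Lyve1 UMIs, 1 mgR cell held 75. As a description of genes that chose the cells, Mmrn1 was at 0.548, Reln at 0.584 and Prox1 at 0.958.

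Of 18 immediate early and stress genes compared, 6 were higher (Atf3, Hspa1a, Hspa1b, Hspb1, Dnajb1 and Hsp90aa1) and Socs3 was lower, with a median of 0.970, beside 2.22% higher and 1.33% lower over all genes compared. Atf3, a stress-induced transcription factor, was at 200, 200 and 741 CPM, a ratio of 3.70 (2.99 to 4.60), which was 1.99 with no upper limit on genes per cell. Hspa1a, an inducible HSP70, was at 266, 142 and 810 CPM in WT, mgR and mgR-LOS, a mgR-LOS over mgR ratio of 5.72 (4.51 to 7.30), and Dnajb1, its cochaperone, had 4.51 (2.91 to 7.17). Hspb1 had a ratio of 2.69 (2.28 to 3.19) and in other endothelial cells one of 0.769 (0.698 to 0.847). Isg15, an interferon-induced ubiquitin-like modifier, was at 60.1, 76.8 and 373 CPM, a ratio of 4.86 (3.49 to 6.86), and had 3.13 (2.05 to 4.84) in other endothelial cells. In thinned cells the Isg15 ratio was 1.70. Hes1, a target of Notch, had 2.71 (2.17 to 3.402) in lymphatic cells, 2.76 (2.11 to 3.64) in other endothelial cells, and 1.68 in lymphatic cells chosen with Pecam1 and Cdh5 of at least 8 per 10000. Nfkbia (2.35), an inhibitor of NF-κB, Plekho1 (2.41), a pleckstrin homology domain protein, and Slfn2 (2.35), of the schlafen family, completed the 10 largest ratios, and in thinned cells they were at 1.60, 1.70 and 1.80. Hspa1a over all cells stood at 509, 279 and 508 CPM, lowest in mgR as in the lymphatic cells, and the part of that shift was not tested. Apoe had a ratio of 3.74 (2.81 to 5.004), which was 1.01 among cells with a Ccl21a UMI.

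The genes lower with losartan included several of those higher in mgR. Socs3 had a mgR-LOS over mgR ratio of 0.216 (0.14 to 0.323), Adamts5 of 0.41 (0.305 to 0.544), Ednrb of 0.372 (0.268 to 0.507), Mgp of 0.474 (0.404 to 0.554) and Iigp1 of 0.418 (0.276 to 0.616). Iigp1 turned direction among cells without Ccl21a and with Mmrn1, at 0.461 for mgR over WT and 2.79 for mgR-LOS over mgR, on 4, 4 and 9 UMIs in WT, mgR and mgR-LOS, and 1 cell held 50% of its mgR-LOS UMIs. Because these ratios share the mgR library, a high value there alone gives both directions. With no upper limit on genes per cell, which brings in 18 mgR and 9 mgR-LOS barcodes, Socs3 was at 0.599, Ednrb at 0.668, Mgp at 0.648, Iigp1 at 0.517, Ccn1 at 0.564, Btbd3 at 0.518 and Atp5g3 at 0.641, all short of 2-fold. Ackr2 had 33 UMIs against 148, a ratio of 0.425 (0.282 to 0.624), which was 0.557 with Pecam1 and Cdh5 of at least 8 per 10000. An Ackr2 UMI was found in 18 of 44 against 53 of 75 cells, unthinned, and the mgR-LOS cells had the lower median depth. Ccn1, a matricellular protein, had 0.383 (0.297 to 0.489) in lymphatic and 0.294 (0.246 to 0.349) in other endothelial cells. Postn had 0.394 (0.277 to 0.55) in lymphatic cells and 0.673 once the cells without Mmrn1 were left out. Btbd3 (0.442), of the BTB domain family, and Atp5g3 (0.477), a subunit of mitochondrial ATP synthase, completed the 10 smallest ratios.

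Of 28 basement membrane and matrix genes 15 could be compared with other endothelial cells, and Lama4 and Igfbp5 were higher and Sparc, Sparcl1, Mgp, Thbs1 and Igfbp7 lower in lymphatic cells of every library, beside 8.28% higher and 7.64% lower over all genes compared. In mgR 2 of 14 were at least 2-fold higher than in WT (Mgp and Ccn1; list median 1.08; 3.68% over all genes), and with losartan 3 of 15 were lower (Lama4, Mgp and Ccn1; list median 0.712; 1.33% over all genes). Of 18 lipid handling genes 5 were compared, and Cd36, used by the rule, Fabp4, Fabp5 and Apoe were lower in lymphatic cells, beside the same 7.64%. Between conditions 3 were compared and Apoe alone was 2-fold apart, lower in mgR than WT (2.23% over all genes) and higher with losartan (2.22%), with the ratios given above. Of 15 hyaluronan and scavenging receptors found, 3 were compared, and Lyve1 was higher (8.28% over all genes) and Cd36 lower (7.64%). Of 17 genes of nitric oxide and vascular tone 6 were compared, and Thbd (thrombomodulin) was higher (8.28% over all genes) and Edn1 and Vwf, used by the rule, Ptgis and Procr lower (7.64%), and of 3 compared between conditions Ednrb alone was 2-fold apart, higher in mgR (3.68% over all genes) and lower with losartan (1.33%).

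Of 23 MHC class I and interferon response genes 10 were compared, and Ifi27l2a was higher and H2-K1, Ly6a and Ly6c1 lower in lymphatic cells, beside 8.28% and 7.64% over all genes. Of 9 compared between mgR and WT, Iigp1 alone was 2-fold apart, higher in mgR (3.68% over all genes). With losartan, of 10 compared, Iigp1 was lower (1.33% over all genes) and Isg15 higher (2.22%). Of 7 junction genes compared, Nectin2, a cell adhesion receptor, alone was 2-fold apart, with a mgR over WT ratio of 2.57 (1.53 to 4.63). Of 5 valve genes compared, Sema3a, a guidance ligand, alone was, at 2.02 (1.38 to 3.08). Over all genes compared 3.68% were higher. Pan-endothelial markers summed to 3697, 4083 and 3979 CPM.

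Among pathways studied in Marfan syndrome, of 28 BMP and TGF-β genes, 6 were abundant enough to compare between mgR and WT. None was 2-fold apart, beside 3.68% higher and 2.23% lower over all genes. Of 7 compared with losartan 1 was higher (2.22% over all genes), Id1, with a ratio of 2.13 (1.62 to 2.82). Of 20 microfibril and elastic fiber genes 4 were compared in either contrast and none was 2-fold apart. Over all genes compared 3.68% were higher and 2.23% lower in mgR than WT, and 2.22% higher and 1.33% lower with losartan. At these shares 4 genes are too few to tell this list from all genes compared. Ltbp4 (a latent TGF-β binding protein) was at 1378, 1064 and 1040 CPM. Cell cycle genes summed to 235 (173 to 313), 619 (561 to 682) and 345 (286 to 412) CPM in lymphatic cells. In other endothelial cells they summed to 1209, 244 and 230 CPM. Mki67 had UMIs in 3 mgR cells and in no cell of the other libraries. Genes under 200 CPM in both libraries of a pair were not compared at this depth.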

How the data were processed

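Single-cell suspensions of ascending aorta were profiled in 3 libraries, 1 for each condition. The UMI counts per gene and barcode were deposited by the authors as filtered matrices of 32285 genes. Per the file headers they were made with Cell Ranger 5.0.1 (WT and mgR) and 6.0.1 (mgR-LOS), whereas the submitters' processing notes list 6.0.1 and mm10 for every library. The effect of this difference was not tested. No normalization had been applied.

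Barcodes were kept if they had between 600 and 5000 genes and no more than 10% of UMIs from mitochondrial genes. UMIs were summed over lymphatic cells within a library and scaled by the lymphatic total to CPM. Genes with at least 200 CPM in either population were compared, a gene was called at 2-fold, and counts under 3 were set to 3. Shares carry Clopper-Pearson, levels exact Poisson and ratios exact conditional binomial 95% intervals. PCR duplicates were collapsed by the UMIs, and the intervals cover counting error only. With 1 library of pooled animals for each condition, differences between conditions carry counting intervals only. To compare shares of cells with a UMI, cells were thinned to 1000 UMIs, and up to 6 shallower smooth muscle-rich barcodes in a library and 2 mgR luminal cells were left out. Smooth muscle-rich barcodes served as the comparison, which does not measure background for genes that these barcodes express, such as Acta2.

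The genes named were those of the selection rule, and the 20 largest and 10 smallest ratios of lymphatic over other endothelial cells. The 10 largest and 10 smallest ratios of each contrast, and members of 30 lists (412 entries) with at least 100 CPM, were also named. List members with lower counts, such as Vegfc, Ackr4, Madcam1 and Agtr1a, were named to report those counts. Mitochondrial, ribosomal protein and globin genes, Gm42418 and AY036118 were not named by rank. The members and lists were chosen with earlier results of these data known, and the splits by Ccl21a and Mmrn1 after the values were seen. Doublets were scored against artificial doublets, which called 230, 522 and 1295 barcodes and no lymphatic, luminal or capillary-type cell; they were removed only as an alternative. On simulated counts 196 of 200 (mgR over WT) and 197 of 200 (mgR-LOS over mgR) changed genes were called, and 0 of 674 and 0 of 661 unchanged ones. Calling of genes close to 2-fold, or of genes with much of their UMIs in a single cell, was not tested. Some genes were counted in the totals but are not reported here. Other limits on cells, gene sets, CPM minimums, scalings and thinning were tried as alternatives. Promoter windows are from RefSeq, GRCm38.p6. Python 3.11.15, numpy 2.4.6, scipy 1.17.1, pandas 2.3.3, scikit-learn 1.9.0 and matplotlib 3.10.9 were used.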

Additional observations from a re-analysis of the deposited data

Results flagged for a closer look

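Among the 40 ratios ranked highest or lowest between libraries, there were 7 for which the counting intervals of lymphatic and other endothelial cells lay on opposite sides of 1 in the same contrast. The difference between the populations was not tested, since each condition had 1 library. From WT to mgR, Egr1 had a ratio of 5.20 (3.50 to 8.05) in lymphatic and 0.80 (0.689 to 0.929) in other endothelial cells, and Adamts5 one of 3.81 (2.47 to 6.18) and 0.256 (0.164 to 0.391). The second Adamts5 value rests on 5 WT cells with tied sums, and without them it was 0.711 (0.410 to 1.25), whose interval holds 1. From mgR to mgR-LOS, Atf3 had 3.70 (2.99 to 4.60) and 0.795 (0.656 to 0.960), Hspb1 2.69 (2.28 to 3.19) and 0.769 (0.698 to 0.847), and Nfkbia 2.35 (1.90 to 2.92) and 0.782 (0.652 to 0.935). In the same contrast Ednrb had 0.372 (0.268 to 0.507) and 1.92 (1.28 to 2.89), and Postn 0.394 (0.277 to 0.550) and 2.21 (1.71 to 2.85). The lymphatic Postn value was 0.673 without the cells lacking Mmrn1, and 1 of those mgR cells held 74 of the 208 mgR UMIs. Genes ranked only between lymphatic and other endothelial cells were not included in this count.

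Barcodes outside the limits on genes or mitochondrial UMIs also met the lymphatic rule; they entered the comparisons only under alternatives that widened those limits. There were 20 in mgR, 18 of them with over 5000 genes, and 13 in mgR-LOS, 9 of them with over 5000 genes. WT held 3. A Ccl21a UMI was found in 9 of those in mgR, 2 in mgR-LOS and 3 in WT.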

How the results depend on the processing

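No paired analysis was possible because each condition had 1 library, and for the same reason no replicate could be left out. The mgR library held the highest lymphatic share of all cells under every alternative that changed the cells chosen. These shares were 0.85%, 1.17% and 0.509% (WT, mgR and mgR-LOS) with at most 5% mitochondrial UMIs, and 0.298%, 0.669% and 0.244% with Pecam1 and Cdh5 of at least 8 per 10000. Without limits on Ptprc, smooth muscle genes and Dcn, lymphatic cells were 24.1% of mgR-LOS endothelium.

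Counts of genes past 2-fold followed the CPM minimum. At 100 CPM 66 genes were higher and 60 lower in mgR than WT, 42 and 38 in mgR-LOS than mgR, and 123 and 121 in lymphatic than other endothelial cells. At 400 CPM the counts were 13 and 9, 9 and 4, and 31 and 30. Thinning to 1000 UMIs, which leaves fewer UMIs for each gene, gave 76 and 100 for mgR over WT and 73 and 88 for mgR-LOS over mgR. Genes lower in mgR than WT numbered 13 with Flt4 left out of the lymphatic sum, 31 with CPM taken without mitochondrial, ribosomal protein and globin genes, and 47 among cells without Ccl21a and with Mmrn1. Genes lower in mgR-LOS than mgR numbered 6 with no upper limit on genes, 27 among cells with Ccl21a and 26 among cells without Ccl21a and with Mmrn1. The cause was not tested.

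Over 40 named ratios and 720 alternative values, 610 stayed within the counting interval of the reported ratio, 102 moved and 8 changed direction. The Dcn ratio of mgR over WT was 1.03 with Dcn under 10 per 10000, 1.00 without limits on Ptprc, smooth muscle genes and Dcn, 2.25 among cells with Mmrn1, 1.30 among cells with Ccl21a and 1.998 among cells without Ccl21a and with Mmrn1. Apoe was at 1.74 among cells with Ccl21a. Iigp1 was at 0.461 (mgR over WT) and 2.79 (mgR-LOS over mgR) among cells without Ccl21a and with Mmrn1. Ratios that fell short of 2-fold elsewhere include Dcn at 0.927 with at most 5% mitochondrial UMIs and Tppp3 at 0.514 by a mean of per-cell CPM. For mgR-LOS over mgR they include Postn at 0.891 and Nfkbia at 1.66 without limits on Ptprc, smooth muscle genes and Dcn, Mgp at 0.504 with Flt4 left out, and Ccn1 at 0.739 and Btbd3 at 0.909 in thinned cells. Alternatives based on Mmrn1 and Ccl21a were chosen after seeing the data. The main limits are pooled animals, 26 WT cells, and single cells that hold much of a gene's UMIs.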
